A study of Sus scrofa with 9 samples.

Results

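The array carried 425 sense probes whose names begin with OTTSUST, the prefix of manually annotated pig transcripts, among 60889 non-control probes. The members were taken by that prefix alone, and each was 60 bases long. They stood for 303 different sequences, because 67 sequences were printed under 2 or more transcript names and covered 189 of the members, up to 10 names on a single sequence. A matching antisense probe existed for 358 members and was the exact reverse complement in all 358. The deposited annotation gave none of the 425 a gene name or a description.

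RNA came from testicular biopsies of boars (Sus scrofa) in 3 groups of 3 single-colour arrays. The control group held fertile boars with normal semen and a normal XY karyotype, and which boar each control array held is not given in the sources used here. The t(1;14) group was 1 boar with few, poorly moving and malformed sperm and a balanced reciprocal translocation between chromosomes 1 and 14, and the oligospermic group had a low sperm count and a normal XY karyotype, with the number of its boars not given in the sources used here. The labels name no treatment and no age for any group, and the 3 arrays of the t(1;14) boar came from separate samples of the same animal, so p-values measure the spread between arrays, and other differences between animals go with the group.

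Gene names were obtained by sequence. A member took the name of another probe of the array when the 2 shared at least 25 consecutive bases on the same strand and that probe's annotation gave a gene symbol or a transcript accession of the gene table. This named 164 members after 73 genes, and 261 members stayed without a name. Of the 72 named genes with a chromosome in the Sscrofa11.1 gene table, 71 lay on chromosome 7 alone, and CLIC1 was listed on chromosome 7 and on chromosome 6. On chromosome 7 the named genes fell within a stretch of 164 consecutive genes running from OLF42-1 to RING1, which is the swine leukocyte antigen (SLA) complex, the pig's major histocompatibility complex. Neither chromosome of the translocation carried a placed member.

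The SLA complex encodes the class I molecules that present peptides from inside the cell, the class II molecules that present peptides taken up by immune cells, and, between and beside them, a dense block of other genes. That block, called class III with its extended flanks, includes complement components, cytokines, chaperones, nuclear proteins and enzymes that have no part in antigen presentation. In the testis several of its genes are known for roles in germ cells: BAG6, a chaperone needed for spermatogenesis, and MSH5, a protein of meiotic crossing over, are examples.

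Stretches of the probes on which the results below turn are shown 5′ to 3′, 30 of the 60 bases each. Capitals mark the hexamer AATAAA, the polyadenylation signal, where a probe held it, and probes in lower case throughout did not hold it. The first set gives probes of named genes whose signal differed between t(1;14) and control arrays, with the neighbour of NEU1.

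OTTSUST00000000661 (NEU1), bases 1 to 30: ttttaatgaaagagaatgactatttgcaga

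OTTSUST00000000473 and OTTSUST00000000475 (SLC44A4), bases 1 to 30: ctcattcccgccttccagatgtcgattttg

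OTTSUST00000000472 (LOC100624113), bases 1 to 30: ggtggtagttccacaatgttatgaatgtat

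OTTSUST00000000989 and OTTSUST00000000990 (NRM), bases 1 to 30: tttgactacgcagaactcatgggcctcaaa

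OTTSUST00000000887 (TRIM31), bases 1 to 30: tctattgcctcatttgttttctattcaaac

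OTTSUST00000000481 and OTTSUST00000000482 (GPSM3), bases 26 to 55: tttggttatgtgAATAAAtataattcccct

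The second set gives members without a gene name that were called between groups, so that they can be placed on a genome.

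OTTSUST00000000670, bases 1 to 30: atatgccttagaacatctgcagagacctct

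OTTSUST00000000483 and OTTSUST00000000486, bases 1 to 30: tctggaagcagattcctgggtgtgtgttta

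OTTSUST00000000644 and OTTSUST00000000646, bases 29 to 58: cgttgtttcagtAATAAAatacagaatgaa

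OTTSUST00000000988, bases 18 to 47: gcgctacaagaaAATAAAatccagcctggt

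OTTSUST00000000544, bases 30 to 59: ttcattttgagtAATAAAtatctgtatctg

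OTTSUST00000000869, bases 1 to 30: tttatggtatgataagagtcaggactttgg

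OTTSUST00000000467, bases 1 to 30: gagttccctgatatcaggaaacagaccttt

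OTTSUST00000001106, bases 1 to 30: actggccatttctgtcgtttatgaccgatg

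OTTSUST00000000668, bases 1 to 30: ttttgtggacatggagtttggcacaggtgc

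OTTSUST00000000777, bases 21 to 50: caccccaaatccAATAAAgggacggagcgc

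The third set gives probes of antigen-presenting molecules and a pair of PBX2 probes with differences of opposite sign.

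OTTSUST00000001100 (SLA-1), bases 31 to 60: ttaattttcctgttggaAATAAAatccaat

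OTTSUST00000000896 (SLA-1), bases 14 to 43: tttgaaagaggaAATAAAtggaaggattga

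OTTSUST00000001102 (SLA-5), bases 1 to 30: aggctgcaggcagtgacagtgctcagggct

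OTTSUST00000000498 (SLA-DQB1), bases 1 to 30: caacagactgtgcaagagaagcacattgaa

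OTTSUST00000000680 (PBX2), bases 1 to 30: tgggccaggggcagttctcgcctcacttgt

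OTTSUST00000000682 (PBX2), bases 1 to 30: gagaggagagtggggtctatttcccccttt

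The hexamer AATAAA, searched on the strand of the probe, stood in 26.8% of the members and in 20.5% of their distinct sequences, against 11.3% of the other probes of the array outside the OTTSUST set. The median GC content was 45.0% for members and 41.7% for those other probes. Of the 14 distinct sequences called between t(1;14) and control, 4 held the hexamer.

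Most of these transcripts gave signal in testis. A probe counted as detected when, in 1 group or more, 2 or 3 of its 3 arrays exceeded background clearly by the scanner software's flag (well above background) and carried no outlier flag. By this rule 352 of the 425 members (82.8%) were detected, against 67.4% of all other probes and 35.5% of the 358 antisense probes of the same transcripts. On single arrays 319 to 348 members were well above background, and 0 to 8 were saturated. The members with a gene name were detected in 90.2% of cases and those without one in 78.2%. On all 9 arrays 293 members were well above background, and 55 were so on none.

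For the 358 pairs of strands, both probes were detected in 108, the sense probe alone in 183, the antisense probe alone in 19 and neither in 48. Over the detected members the normalized log2 signal in controls had a median of 7.84, with an interquartile range from 5.91 to 10.66. Signals of different probes were not read as relative amounts of RNA, since probes bind with different strength. They were ranked to pick the brightest probe of a gene and members to name, and summed for cell type lists.

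Repeated sequences gave a measure of the error on one array. For the 59 sequences printed under 2 or more names with a detected member, the SD between spots of one sequence on one array had a median of 0.05 on the log2 scale and ran from 0.02 to 0.41. The SD between arrays of a group for the same sequences had a median of 0.14, and it exceeded the SD between spots in 53 of the 59. The 10 spots of the most repeated sequence, which carry names from OTTSUST00000000559 to OTTSUST00000000569 without OTTSUST00000000562, had log2 fold changes from -1.06 to -0.85 between t(1;14) and control. The differences between groups described next are therefore set against the spread between arrays, which was the larger of the 2 errors in most sequences.

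The first comparison asked which of these transcripts differed between the testis of the translocation carrier and fertile testis. Of the members, 348 passed the filter and were tested. At an adjusted p of at most 0.01 (limma, Benjamini-Hochberg adjustment over all 40643 probes tested) and a log2 fold change of 2 or more in size, 18 members in 14 distinct sequences were called, 7 higher and 11 lower in t(1;14). The called share over all tested probes was 5.61%, with 1.31% higher and 4.3% lower, and 5.17% of the tested members were called, so the members' share was near that of the array. With the fold threshold at 1, 24 members were higher and 44 lower, 19.5% of the members in all against 19.1% of all tested probes (7.45% higher and 11.7% lower). The median log2 fold change was -0.08 over the members tested and 0.14 over all tested probes. An absolute log2 fold change under 0.5 was measured in 180 members, 51.7% of those tested, against 44.8% of all probes. With the filter required in both groups, 13 members were called, 5 higher and 8 lower, and 1795 probes over the array. The calls lost were OTTSUST00000000467, OTTSUST00000000670, OTTSUST00000000887, OTTSUST00000000483 and OTTSUST00000000486, each with no array well above background in 1 group.

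NEU1 and SLC44A4, which lie next to each other on chromosome 7, gave the largest rises among the named genes. NEU1 encodes a lysosomal sialidase, an enzyme that removes sialic acid from glycoproteins. Its member OTTSUST00000000661 measured 6.56, 6.72 and 7.19 on control arrays 1, 2 and 3 and 9.69, 9.60 and 9.62 on the t(1;14) arrays, in normalized log2 signal. Each t(1;14) array exceeded each control array, as in 35.8% of all probes tested. The mean difference was 2.82 (SE 0.18, adjusted p = 0.00015, n = 3 arrays per group, limma). This is 7.04-fold, and another NEU1 probe of the array gave 2.90 on the log2 scale.

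SLC44A4 encodes a choline transporter-like protein of the cell membrane. OTTSUST00000000475 measured 7.16, 8.31 and 8.62 in controls against 10.30, 10.42 and 10.43 in t(1;14). The rise was 2.35 (SE 0.37, adjusted p = 0.00303, limma), and OTTSUST00000000473, with the same sequence, also gave 2.35. The control arrays of SLC44A4 were spread widely, while the t(1;14) arrays lay close together above all of them. Without control array 1 the fold fell below the threshold (1.92), and without any single t(1;14) array the adjusted p rose to between 0.0124 and 0.0152. The remaining member of SLC44A4, OTTSUST00000000474, with a different sequence, did not pass the filter.

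The gene next to NEU1 on its other side is LOC100624113, listed as a long non-coding RNA, and it was named here for its place after its values were seen. Its member OTTSUST00000000472 measured 12.77, 12.11 and 12.48 in controls and 13.49, 13.40 and 13.59 in t(1;14), a rise of 1.03 (SE 0.19, adjusted p = 0.00512, limma), so it passed the threshold of 1 and not that of 2. EHMT2, a histone methyltransferase gene on the far side of SLC44A4, had 3 members of one sequence with log2 fold changes from 0.29 to 0.33, none of which passed the test. No test of the neighbours as a run was made.

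NRM gave the deepest fall among named genes. It encodes nurim, a protein of the inner nuclear membrane. OTTSUST00000000990 measured 8.34, 8.45 and 8.56 in controls and 5.65, 5.26 and 5.31 in t(1;14), a log2 fold change of -3.04 (SE 0.15, adjusted p = 0.000124, limma), or 8.23-fold lower. OTTSUST00000000989, with the same sequence, gave -2.90. Both other NRM probes of the array gave -2.89 and -2.99. On the members no array of one group reached those of the other, as in 62% of all probes tested.

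TRIM31, an E3 ubiquitin ligase gene, was at 4.92, 5.31 and 6.04 in controls and at 3.31, 2.70 and 3.22 in t(1;14), where no array was well above background. The fitted log2 fold change of OTTSUST00000000887 was -2.35 (adjusted p = 0.00175, limma), and the fall was at least 3.53-fold when t(1;14) is set at the lowest signal that counted as above background. The 2 other TRIM31 probes of the array gave -1.62 and -0.32. The probe with -0.32 had the highest signal, 10.42 in controls and 10.10 in t(1;14), and did not pass the test (adjusted p = 0.531, limma). The fall therefore did not hold over all probes of this gene.

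GPSM3, a regulator of G-protein signalling, lay at the threshold. OTTSUST00000000482 measured 6.38, 6.63 and 7.35 in controls and 4.83, 4.66 and 4.85 in t(1;14), a log2 fold change of -2.01 (SE 0.26, adjusted p = 0.0014, limma). OTTSUST00000000481, the same sequence under another name, gave -1.90 and was not called. The first also fell short with 75th percentile scaling (-1.89), without control array 3 (-1.73) and without t(1;14) array 2 (-1.95).

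Among members without a gene name, chosen here after their values were seen, OTTSUST00000000670 fell most. It measured 6.41, 6.71 and 6.16 in controls and 6.09, 6.14 and 6.29 in the oligospermic arrays, and 1.99, 1.62 and 2.67 in t(1;14), where no array was well above background. The fitted log2 fold change against controls was -4.33 (adjusted p = 0.000163, limma), which gives a fall of at least 7.06-fold. No other probe of the array shared 25 bases with it.

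Other unnamed members also fell. OTTSUST00000000988 went from 12.98, 13.08 and 13.01 in controls to 10.54, 10.47 and 10.45 in t(1;14), a difference of -2.54 (SE 0.10). OTTSUST00000000544 went from 12.89, 12.84 and 12.56 to 10.45, 10.17 and 10.33, a difference of -2.45 (SE 0.14). OTTSUST00000000869 went from 12.58, 12.39 and 11.25 to 9.43, 9.51 and 9.43, a difference of -2.62 (SE 0.34). In each of the 3 the groups did not overlap, as in 62% of all probes tested, and control array 3 was the outlying control array of OTTSUST00000000869. The remaining unnamed members that fell were OTTSUST00000000467 (-2.23, at least 3.85-fold since no t(1;14) array was well above background), OTTSUST00000001106 (-2.17) and OTTSUST00000000668 (-2.02). The last lay below the fold threshold without control array 2 (-1.95), control array 3 (-1.97) or t(1;14) array 2 (-1.94).

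The unnamed members that rose were 2 pairs of one sequence each. OTTSUST00000000483 measured 2.62, 3.46 and 2.90 in controls, none well above background, 5.91, 5.69 and 5.56 in t(1;14) and 4.63, 4.26 and 4.31 in the oligospermic arrays. Its rise in t(1;14) was at least 4.42-fold (adjusted p = 0.000326, limma), and for the same sequence under OTTSUST00000000486 at least 4.27-fold. In this comparison both passed the filter through the t(1;14) arrays alone. The call of OTTSUST00000000486 was lost without control array 3 or any t(1;14) array (adjusted p from 0.0106 to 0.0179, limma). OTTSUST00000000644 rose from 7.64, 8.20 and 7.69 to 9.79, 9.76 and 10.00, a log2 fold change of 2.01 (SE 0.18), and its copy OTTSUST00000000646 by 2.05. The difference of OTTSUST00000000644 fell below the threshold without control array 1 (1.91), control array 3 (1.93) or t(1;14) array 3 (1.93). Another array probe shares their sequence, and its annotation names only a partial match to a human protein isoform. The antisense probe of OTTSUST00000000644 was detected too and did not pass the test (log2 fold change -0.69, adjusted p = 0.0271, limma).

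The 7 called members with a gene name all belonged to the class III and extended region list. The 11 without a name were not placed here. The class III and extended region list held 134 members of 56 genes, of which 121 were tested. Of these, 3 were called higher and 4 lower, their median log2 fold change was -0.10, and with the threshold at 1 there were 5 higher and 13 lower. This is 5.79% of the list's tested members at the threshold of 2, against 5.61% of all probes tested, and 14.9% at the threshold of 1, against 19.1%. Measured over the whole array with the brightest probe of each gene, 88 of the 118 genes of this list were tested, 1 rose and 5 fell. That is 6.82% of the genes tested, against 5.61% of all probes. SLC44A4 is not among the called genes because its brightest probe, no member of the OTTSUST set, gave 1.88.

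Between the thresholds of 1 and 2 lay named genes with well-known functions, chosen here after their values were seen. CFB, factor B of the alternative complement pathway, rose by 1.45 (4.35, 4.30 and 4.64 in controls, 5.70, 6.09 and 5.84 in t(1;14)). PPP1R11, an inhibitory subunit of protein phosphatase 1, fell by 1.50 (9.14, 9.99 and 9.61 against 8.11, 8.09 and 8.02). VARS, valyl-tRNA synthetase, fell by 1.28 (14.71, 14.43 and 14.61 against 13.34, 13.52 and 13.07). All 3 had adjusted p values at or under 0.00228. Counted by gene, 15 of the 66 named genes tested had a member past the threshold of 1 with the adjusted p, 5 higher and 10 lower, and 5 had a member called at the threshold of 2. Over all probes tested, counted singly, the shares at these thresholds were 19.1% and 5.61%. Of the 66 genes, 33 had every tested member within 0.5 of 0.

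BAG6 had 6 members of one sequence, and its spots were saturated on 3 to 6 of the 9 arrays. Each of the 6 was saturated on 1 to 3 control arrays and on 0 or 1 t(1;14) array, so differences between the groups are affected and no fold change between t(1;14) and control is given. OTTSUST00000000555, saturated on 1 control array and 0 t(1;14) arrays, measured 16.13, 16.09 and 16.11 in controls against 15.64, 15.88 and 15.68 in t(1;14). BRD2, a bromodomain protein that binds acetylated histones, measured 15.29, 14.77 and 15.01 against 14.55, 14.74 and 14.59 on OTTSUST00000000517 (adjusted p = 0.0825, limma). MSH5 gave 0.37 to 0.44 over 4 members of one sequence, and none passed the test.

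The members for class I and class II molecules were not called between t(1;14) and control. Class I with peptide loading had 6 members, of SLA-1, SLA-5, SLA-7, SLA-8 and, for peptide loading, PSMB9. Of them 5 were tested, with log2 fold changes from -0.08 to 0.98 and a median of 0.57. Class II had 9 members, of SLA-DMA, SLA-DMB, SLA-DQB1 and SLA-DRA, all tested, from -0.57 to 1.04 with a median of 0.14. SLA genes are close copies of one another and differ between animals, so a probe can bind several of them and its name here is uncertain.

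SLA-1, a classical class I heavy chain, measured 13.65, 13.35 and 14.81 in controls, 14.80, 14.82 and 14.74 in t(1;14) and 13.82, 13.55 and 13.30 in the oligospermic arrays on OTTSUST00000001100. Control array 3 reached the t(1;14) arrays and the other control arrays did not, and the difference of 0.85 (SE 0.37) did not pass the test (adjusted p = 0.0987, limma). SLA-5 on OTTSUST00000001102 measured 9.64, 10.16 and 11.08 in controls, 11.40, 11.21 and 11.22 in t(1;14) and 9.26, 9.19 and 9.24 in the oligospermic arrays (0.98 against controls, adjusted p = 0.0569, limma), and control array 3 again came nearest to the t(1;14) arrays, just below them. SLA-DRA, the alpha chain of the DR molecule, measured 8.14, 7.60 and 9.48 in controls and 8.96, 9.03 and 9.18 in t(1;14) on OTTSUST00000000499, with a difference of 0.66 (adjusted p = 0.271, limma).

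SLA-DQB1, the beta chain of the DQ molecule, varied widely between arrays of the same group. OTTSUST00000000498 measured 9.45, 6.73 and 9.56 in controls, 8.77, 11.24 and 8.86 in t(1;14), and 8.27, 8.13 and 7.85 in the oligospermic arrays. Array 2 of t(1;14) stood far above the other arrays of the same animal on this probe, and control array 2 far below the other control arrays. On OTTSUST00000000896, a second SLA-1 member, the same array stood apart in the other direction, at 10.78 against 12.28 and 12.33. Over the detected members the within-group SD had a median of 0.23 in controls, 0.13 in t(1;14) and 0.16 in the oligospermic arrays, against an SD of 1.60 for SLA-DQB1 in controls and 1.40 in t(1;14).

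The lists were also counted over the whole array, by the brightest probe of each gene. For class I and peptide loading, 15 of 30 genes were tested between t(1;14) and control and 0 were called. Past the threshold of 1 were 3, all higher, which is 20% of the genes tested. Of all probes 19.1% passed it, 7.45% of them as higher over all tested. For class II and its processing, 13 of 26 genes were tested and 1 was called, LGMN (legumain, a lysosomal protease), which is no member (7.69% of the genes tested, against 5.61% of all probes). For complement and its regulators, 23 of 35 genes were tested, 0 were called higher and 2 lower (C3 and C5, no members), with 4 higher and 3 lower at the threshold of 1. That is 8.7% and 30.4% of the 23, against 5.61% and 19.1% of all probes. Among these, 4 members of C2, C4A and CFB were tested and 0 were called, with CFB past the threshold of 1. C4A, complement component 4, measured 8.94, 9.27 and 9.53 in controls and 10.06, 10.11 and 9.92 in t(1;14) on OTTSUST00000000626 (0.79, adjusted p = 0.0108, limma), and C2 measured 6.66, 6.29 and 7.09 against 6.86, 6.92 and 6.78 on OTTSUST00000000643 (adjusted p = 0.523, limma).

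Cell type markers moved with the t(1;14) group. In bulk tissue, fewer cells of a type and less RNA per cell cannot be told apart. Of 13 spermatid markers tested, 4 fell and 0 rose (ACRV1, ODF1, ODF2 and TSSK2), and their summed signal on the linear scale ran from 279357 to 309882 in t(1;14), from 515565 to 571627 in controls and from 525788 to 569035 in the oligospermic arrays. Of 13 Leydig cell markers tested, 6 rose and 0 fell, among them STAR and CYP11A1 of steroid synthesis, with summed signals from 257851 to 278650 against 108348 to 112823 in controls and 95066 to 123702 in the oligospermic arrays. The spermatocyte list (10 tested, MSH5 among them) had 0 called, with summed signals from 59363 to 65398 in t(1;14), 80988 to 88828 in controls and 95120 to 99035 in the oligospermic arrays, while its median log2 fold change between t(1;14) and control was 0.18, opposite in sign to the shift of the sum. The spermatogonium list (9 tested) had 0 called, a median of 0.51 and summed signals from 15652 to 16247 in t(1;14), 10382 to 13437 in controls and 9817 to 12239 in the oligospermic arrays. No gene was called in the peritubular and vascular list (12 tested), and 1 of 12 Sertoli markers fell. Over all probes tested between t(1;14) and control, 4.3% were called lower and 1.31% higher. The part of these shifts in the members' values was not tested.

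Of the immune markers, 18 were on the array and 8 were detected in controls and in t(1;14), while the T cell genes CD3D, CD3E, CD3G, CD2, CD4, CD8A and CD8B were not detected in any group. The summed signal of the list ran from 533 to 759 in controls, from 729 to 798 in t(1;14) and from 520 to 571 in the oligospermic arrays. AIF1, a macrophage gene with 4 members of one sequence, gave log2 fold changes from 0.74 to 0.89, with OTTSUST00000001462 at 6.71, 5.91 and 6.80 in controls and 7.05, 7.28 and 7.37 in t(1;14) (adjusted p = 0.0478, limma). The part of immune cells in these values was not tested.

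Members of one gene did not always give the same difference. PBX2, a homeodomain transcription factor gene next to GPSM3, was chosen after its values were seen because its 2 tested members had differences of opposite sign, of which the negative one passed the test at the fold threshold of 1. OTTSUST00000000680 measured 10.58, 10.79 and 10.22 in controls and 11.29, 11.24 and 11.30 in t(1;14), a difference of 0.74 (SE 0.17, adjusted p = 0.0113, limma). OTTSUST00000000682 measured 8.61, 9.02 and 8.93 in controls and 7.95, 7.07 and 7.76 in t(1;14), a difference of -1.26 (SE 0.25, adjusted p = 0.00778, limma). The groups did not overlap on either probe, as in 62% of all probes tested. Other PBX2 probes of the array gave log2 fold changes from 0.80 to -1.54. The name of OTTSUST00000000682 rests on 33 shared bases and that of OTTSUST00000000680 on 51. ABCF1 and RXRB each had a member past the threshold of 1 (-1.18 and -1.04) beside other members from -0.24 to -0.10.

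Presence and absence of signal separated few members. No member was well above background on all 3 arrays of a single group and on none of the other arrays, a pattern held by 0.358% of all probes for t(1;14), 0.038% for controls and 0.025% for the oligospermic arrays. The opposite pattern, no array of t(1;14) above background and all 6 other arrays above it, was found in 5 members (1.18% of members, against 0.535% of all probes): OTTSUST00000000467, OTTSUST00000000670, OTTSUST00000000887 (TRIM31), OTTSUST00000001032 and OTTSUST00000001127. The OTTSUST00000000483 pair, of one sequence, was the only case of absence in controls alone (0.471% of members, against 0.03% of all probes), and no member was absent in the oligospermic arrays alone, against 0.057% of all probes.

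The second comparison, oligospermic against control, asked whether a low sperm count with a normal karyotype went with the same kind of differences. Of 343 members tested, 1 was called, against 0.073% of the 39713 probes tested, and the median log2 fold change of the members was -0.01. At an unadjusted p under 0.05 there were 62 members, 18.1% of those tested against 9.84% of all probes. The groups did not overlap in 88 members, 25.7% of those tested against 15.7% of all probes.

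The called member was OTTSUST00000000777, which has no gene name and holds an AATAAA hexamer. It measured 7.14, 7.24 and 7.59 in the oligospermic arrays, 3.38, 4.07 and 2.96 in controls, of which 1 array was well above background, and 2.12, 2.85 and 1.50 in t(1;14), with none. The rise over controls was 3.85 (SE 0.29, adjusted p = 0.00875, limma). The call was lost with slide or replicate number as a block, with no filter, with a filter in both groups, with normexp background correction, with the authors' log2 values, and without control array 1, control array 3, any oligospermic array or the slide 1 arrays. The difference itself stayed between 3.60 and 3.95 where leaving out 1 array ended the call (adjusted p from 0.0147 to 0.0849, limma), and it was 3.75, 3.17 and 4.63 within slides 1, 2 and 3. With either block 0 probes of the whole array were called in this comparison, against 29 without one. Here replicate numbers and slides coincide and pair the arrays.

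No named gene was called between oligospermic and control. SLC44A4 and SLA-5 were lower by 1.06 (OTTSUST00000000475) and 1.06 (OTTSUST00000001102), with adjusted p values of 0.415 and 0.386 (limma). TRIM31 on OTTSUST00000000887 was at 6.79, 6.86 and 6.99 in the oligospermic arrays, above all control arrays by 1.46 on average (adjusted p = 0.156, limma). In classes I and II together, 14 members were tested and 0 were called.

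The third comparison set t(1;14) against oligospermic, and it shares the t(1;14) arrays with the first and the oligospermic arrays with the second. Of 345 members tested, 27 in 19 distinct sequences were called, 11 higher and 16 lower in t(1;14), which is 7.83% of the members against 6.82% of the 40567 probes tested (1.93% higher and 4.89% lower). The median log2 fold change was -0.16 over members and 0.14 over all tested probes. With the filter required in both groups, 19 members were called, 9 higher and 10 lower, and 2042 probes over the array.

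Named genes higher in t(1;14) than in the oligospermic arrays were SLC44A4, NEU1 and SLA-5. SLC44A4 differed by 3.41 on OTTSUST00000000475 (7.06, 7.01 and 6.84 in the oligospermic arrays, SE 0.10, adjusted p = 1.8e-05, limma), and NEU1 by 3.09 on OTTSUST00000000661 (6.56, 6.69 and 6.39, SE 0.11). SLA-5 differed by 2.05 on OTTSUST00000001102 (SE 0.10, adjusted p = 2.14e-05, limma), and without t(1;14) array 1 it lay below the fold threshold, at 1.99. The 2 other SLA-5 probes of the array gave 2.06 and 3.37. SLA-5 was the single member named for a class I or class II gene that was called in any comparison. Of the 8 immune markers tested here, 6 were past the threshold of 1, all higher in t(1;14), against 11.1% of all probes tested, and the list's median log2 fold change was 1.14. AIF1, on that list, was past the threshold of 1 on all 4 members, from 1.16 to 1.47. The part of immune cells in the SLA-5 difference was not tested.

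Named genes lower in t(1;14) were TRIM31, GPSM3 and NRM. TRIM31 was lower by at least 9.67-fold on OTTSUST00000000887. Other TRIM31 probes of the array gave -2.85 and -0.77, and the probe with -0.77 did not pass the test (adjusted p = 0.0954, limma). GPSM3 had -2.62 and -2.59 on OTTSUST00000000482 and OTTSUST00000000481, and NRM had -2.64 and -2.51 on OTTSUST00000000990 and OTTSUST00000000989. Among the unnamed, OTTSUST00000000777 was lower by at least 13.1-fold and OTTSUST00000000670 by at least 5.92-fold. OTTSUST00000000494 measured 5.07, 4.91 and 5.44 in the oligospermic arrays and had no t(1;14) array above background, a fall of at least 2.90-fold, while the controls spread from 2.26 to 4.65 and 7.50. That spread, with an SD of 2.62, was the widest of any detected member in controls, and against t(1;14) the controls did not pass the test (adjusted p = 0.0596, limma).

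Among unnamed members higher in t(1;14), OTTSUST00000000627, OTTSUST00000000628 and OTTSUST00000000629 share a sequence and differed from the oligospermic arrays by 2.52, 2.78 and 2.91. The 5 members of the sequence of OTTSUST00000000609 gave 1.95 to 2.06, so that 2 of the 5 were called on a threshold that all 5 nearly met.

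The arrays of slide 1, which held control array 1, t(1;14) array 2 and oligospermic array 1, stood apart within their groups over all probes of the array. On them 3.68%, 2.93% and 3.06% of all probes lay at least 1 log2 unit from the other arrays of the group while those agreed within 0.5, against 2.16% or less on every other array. By the same measure 7, 7 and 9 members stood apart on them, against 0 or 1 member on each other t(1;14) or oligospermic array and 11 and 12 on control arrays 2 and 3, more than on control array 1. Within the slides, the difference between t(1;14) and control ran from 2.50 to 3.04 for NEU1 and from -2.91 to -3.14 for NRM on OTTSUST00000000990. With slide as a block 18 members were called, and without the slide 1 arrays, an alternative chosen after seeing the data, 19 members were called, 14 of them among the 18. The higher calls numbered 3 without control array 1, 4 without t(1;14) array 1 or 2, 2 without t(1;14) array 3 and 4 without slide 1.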

How the data were processed

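Testis RNA was labelled with cyanine 3 and hybridized to a custom porcine array, 9 arrays on 3 slides, each slide with 1 array of each group. The authors deposited spot intensity values from Feature Extraction, background-subtracted and without normalization between arrays, and log2 values that are quantile normalized, used here as an alternative. Here the processed intensities of the 60889 non-control probes were put on the log2 scale, with quantile normalization across all 9 arrays, and each comparison was fitted on its 6 arrays in limma 3.58.1 (R 4.3.3). Tests covered probes that, in 1 or both groups compared, had 2 or 3 arrays flagged as well above background and not as outliers. Between 37087 and 40632 probes per array met that background flag. P was adjusted by Benjamini-Hochberg over all probes tested. Where no array of a group was above background, the bound took on each array the higher of its value and the lowest signal above background.

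Members and lists were chosen with earlier results of these data known. The named genes are the called members with 1 symbol (up to 12 each way for t(1;14) against control, 6 for the others) and the members of each list with the highest signal. Other names were picked with their values known, as the text says. Gene order came from a Sscrofa11.1 table, an assembly later than the study's, so no coordinates are given. The fits were also run on simulated data with independent arrays and changes larger than the fold threshold. That setting does not bear on the pairing by slide or on calls near the threshold. Deviations of arrays with the same replicate number correlated at -0.29, -0.20 and 0.14 between t(1;14) and control, at -0.43, -0.34 and 0.12 between t(1;14) and oligospermic, and at 0.49, 0.14 and 0.10 between oligospermic and control, where the numbers are also the slides and pair the arrays. Arrays of one slide correlated at 0.35, 0.11 and 0.12 between t(1;14) and control and at 0.50, 0.30 and 0.34 between t(1;14) and oligospermic, so slide pairs the arrays there. Alternatives were other scalings, background corrections, filters, thresholds, blocks and the omission of each array. Every SE and adjusted p given for a single probe is from a fit without a block.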

Additional observations from a re-analysis of the deposited data

How the results depend on the processing

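Between t(1;14) and control the number of called members stayed between 13 and 18 when any 1 array was left out, and was 6 with normexp background correction, 68 at a fold threshold of 1 and 97 by adjusted p alone, against 18. Over all probes these settings called 997, 7771 and 12668, against 2282. By adjusted p alone 8.62% of the members tested were higher and 19.3% lower, against 15.6% each way of all probes. With replicate number as a block it was 17. Between t(1;14) and oligospermic it was 8, 92 and 158 under the same 3 settings, against 27, and 24 to 32 without 1 array; with the replicate block it was 27. Over all probes they called 1109, 10125 and 19916, against 2766, and by adjusted p alone 19.7% of the members were higher and 26.1% lower, against 27.1% and 22% of all probes. With slide as a block the counts were 18 and 28. The single call between oligospermic and control was 0 with normexp, the authors' log2 values, no filter, a filter in both groups, slide as a block, the replicate block and without the slide 1 arrays (added after seeing the data), and 0 to 1 without 1 array. The median control signal was 7.95 with the authors' values, against 7.84. The cause was not tested in any of these.

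Of 1688 alternative values of 90 results on single probes, 18 changed sign, none of them past the test. Against control, the oligospermic difference of OTTSUST00000001127 was 0.0058 with normexp, and without the slide 1 arrays that of OTTSUST00000000499 was -0.2386 and that of OTTSUST00000000636 was 0.0603. Leaving out 1 array gave differences between t(1;14) and control from -0.0214 to 0.3795 for OTTSUST00000000643. For oligospermic against control it gave -0.3483 to 0.5916 for OTTSUST00000000499, -0.0042 to 0.2546 for OTTSUST00000000517, -0.0448 to 0.0076 for OTTSUST00000000555 (saturated on 1 control and 2 oligospermic arrays, so not a measured difference), -0.1504 to 0.0655 for OTTSUST00000000636 and -0.2193 to 0.1816 for OTTSUST00000000643. It gave -0.2622 to 0.0246 for OTTSUST00000000680, -0.4182 to 0.2763 for OTTSUST00000000896, -0.6746 to 0.0556 for OTTSUST00000001100, -0.8652 to 0.3014 for OTTSUST00000001125 and -0.2141 to 0.0173 for OTTSUST00000001127.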
